A study of Mus musculus with 3 samples.

Results

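Gene expression was examined for 32 genes of mitosis and the spindle in Hepa1c1c7 cells, a mouse hepatoma line, after transfection with an empty vector, a Mst1r vector or a Slpi vector. The genes were listed by what their proteins do in cell division, with earlier results of these data known, and each was followed through its brightest probe. All 32 had a probe matched through its RefSeq accession, and all 32 were well above background on each array. They are 32 of the 19249 features detected in this way, out of 45616 features with a probe. Mst1r encodes a receptor tyrosine kinase, and Slpi encodes a secreted inhibitor of serine proteases.

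The study asked which genes respond to overexpression of Mst1r or Slpi. Every group was 1 sample on 1 single-colour Agilent array, 3 arrays in all. The labels do not give the number of cultures behind each sample. The empty vector was pCMV6-Kan/Neo, the other plasmids were mouse ORF clones, and all cultures received a plasmid through the transfection reagent HilyMax and were examined after about a day. No selection of transfected cells is described, so each array may pool cells with and without plasmid. A test between groups was therefore not possible, no difference has a replicate check, and the number of arrays limits the precision. The error printed after a difference is the SD that probes printed repeatedly on 1 array give for it, and it covers no variation between cultures. It combines the scatter between positions on each of the 2 arrays. Taken at the same position on both arrays, the SD of a difference was smaller, 0.054 to 0.070 for log2 signals of 8 to 14. The printed error is thus the wider of the 2 readings, and counts in SD below use it. For most members it comes from few probes.

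Cells enter mitosis when CDK1 binds cyclin B and is switched on by CDC25 phosphatases. Plk1 and the aurora kinases then drive centrosome maturation and spindle assembly, kinetochores attach chromosomes to microtubules, and the spindle checkpoint holds back the anaphase-promoting complex until attachment is complete. Most of these genes are transcribed late in the cycle, so their mRNA is abundant in dividing cultures such as hepatoma lines and scarce in resting hepatocytes. Their promoters are known for 2 short elements, the CCAAT box bound by the NF-Y factor and the cell cycle genes homology region (CHR) bound by the DREAM and MuvB complexes.

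Promoters of 6 members are shown because they let the reader see the elements that many, but not all, of these genes carry. They were taken from RefSeq (GRCm38.p6), run 5′ to 3′ on the strand of the gene from 170 bases before to 30 bases after the start, and carry in capitals each CHR (TTTGAA or TTTAAA) and each CCAAT box on either strand, so that TTCAAA and ATTGG are capitals too.
Cdk1, chr10:69352883-69353082, minus strand: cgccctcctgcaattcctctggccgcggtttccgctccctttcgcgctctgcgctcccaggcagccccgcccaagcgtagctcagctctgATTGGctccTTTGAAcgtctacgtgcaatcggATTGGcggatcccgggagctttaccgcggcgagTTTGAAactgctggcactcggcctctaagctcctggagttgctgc
Ccnb1, chr13:100786457-100786656, minus strand: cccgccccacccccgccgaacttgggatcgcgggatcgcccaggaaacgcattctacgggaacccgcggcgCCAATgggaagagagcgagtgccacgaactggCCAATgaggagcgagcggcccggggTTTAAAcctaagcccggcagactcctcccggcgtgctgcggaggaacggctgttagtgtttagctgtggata
Ccnb2, chr9:70421525-70421724, minus strand: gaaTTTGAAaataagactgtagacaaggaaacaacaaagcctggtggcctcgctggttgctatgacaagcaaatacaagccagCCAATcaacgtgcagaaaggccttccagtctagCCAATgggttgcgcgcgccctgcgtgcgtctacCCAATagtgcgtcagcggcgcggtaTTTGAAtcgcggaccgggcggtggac
Plk1, chr7:122159265-122159464, plus strand: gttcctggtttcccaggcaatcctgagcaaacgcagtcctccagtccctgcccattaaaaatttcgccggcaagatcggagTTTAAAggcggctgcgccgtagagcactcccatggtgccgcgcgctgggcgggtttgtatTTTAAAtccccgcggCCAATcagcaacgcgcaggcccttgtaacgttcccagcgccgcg
Cdc20, chr4:118437314-118437513, minus strand: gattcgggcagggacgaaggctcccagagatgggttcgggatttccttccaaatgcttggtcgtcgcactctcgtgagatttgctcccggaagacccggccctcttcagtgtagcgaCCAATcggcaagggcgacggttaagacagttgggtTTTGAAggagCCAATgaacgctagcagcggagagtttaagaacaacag
Bub1b, chr2:118598041-118598240, plus strand: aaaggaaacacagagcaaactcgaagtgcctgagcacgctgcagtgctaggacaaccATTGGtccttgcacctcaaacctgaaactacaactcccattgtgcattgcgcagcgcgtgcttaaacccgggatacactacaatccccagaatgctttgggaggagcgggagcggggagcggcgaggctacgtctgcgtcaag

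Ccnb2 has 3 CCAAT boxes in the printed stretch and Cdk1, Ccnb1 and Cdc20 have 2 each, while Bub1b has 1. In Bub1b the TTTGAA begins 40 bases after the start, outside the printed stretch. Promoter windows from 250 bases before to 50 bases after the start were found for 27 of the 32 genes, and not for Aurkb, Ccna2, Cdc25c, Kif20a and Tpx2. A CHR sequence lay in the window of 21 of the 27 (77.8%), against 30.6% of all genes with a promoter in the table, 23.2% of the detected genes and 30.6% of the DNA replication genes described later. A CCAAT box lay in 20 of 27 (74.1%), against 41.1% of all genes, 43.0% of the detected genes and 58.3% of the replication genes. Both were present in 18 of 27 (66.7%), against 12.2%, 9.56% and 16.7%. Mad2l1, Nuf2, Nusap1 and Pttg1 had neither. The motifs overlapped in 0 of the member windows. These are matches of letters and not measured sites.

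The transfected genes, which check the labels, were not higher beyond the spot error on their own arrays. The single Mst1r probe stayed at background on each array, at processed signals of 4.15 (empty vector), 4.08 (labelled Mst1r) and 3.70 (labelled Slpi). The brighter Slpi probe gave 6459, 3843 and 6680, a scaled log2 difference of 0.13 ± 0.14 on the Slpi-labelled array, and the second gave 106, 91.7 and 85.8. Whether these probes lie within the coding sequences carried by the plasmids was not determined, so they may not report the plasmid transcripts, and the study's real-time PCR of Mst1r was not analysed here. The vector arrays are called by their labels throughout. Of 11 hepatocyte and hepatoma markers 6 were well above background on all arrays (Alb, Afp, Apoa2, Foxa2, Krt8 and Krt18), Ttr, Apoa1 and Serpina1a on some arrays only, and Hnf4a, a defining factor gene of hepatocytes, and H19 on none. Of 8 markers of other cells, Pecam1, Col1a1, Des and Krt19 were well above background on all arrays, and Ptprc, Adgre1, Cdh5 and Epcam on none. Marker signals are given here without scaling between arrays, whose 75th percentiles were 268, 229 and 254 (empty, Mst1r-labelled, Slpi-labelled). The summed signal of the hepatoma markers was 249894, 216073 and 234245 in the same order, most of it from Krt8 and Krt18. Alb gave 5083, 6449 and 4966, higher on the Mst1r-labelled array. The other 5 of these detected markers had lower unscaled signals there than with empty vector, and the 75th percentile of that array was lower too. The summed signal of the markers of other cells was 6842, 6796 and 5874, most of it from Col1a1 (6508, 6677 and 5718). Des, a stellate cell marker, gave 227, 37.9 and 58.2, and Krt19, a bile duct marker, gave 53.3, 28.8 and 59.2. The part of these markers in the differences below was not tested. The arrays lay on 1 slide, so position on the slide and group cannot be told apart.

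On the Mst1r-labelled array 29 of the 32 mitosis and spindle genes were lower than with empty vector. The median log2 difference was -0.16, against -0.026 for all features, and the range ran from -0.46 (Cenpf) to 0.13 (Cdc25c). The shifts were small, since 8 genes were at least 0.25 lower on the log2 scale (1.19-fold), 0 were at least 0.25 higher and 0 were 2-fold apart. Among all 19249 features 55.4% were lower, 14.1% at least 0.25 lower, 15.6% at least 0.25 higher and 2.91% at least 2-fold apart. The members thus had larger shares below 0 (29 of 32) and at least 0.25 lower (8 of 32) than all features, and none of the 2-fold differences. Cdc20, Cdc25c and Cenpa, the genes that were higher, were lower without scaling, and of these only Cdc25c stayed above 0 (0.019) under spike-in scaling. In an RNA pool of many cells, fewer cells in mitosis and less RNA per cell cannot be told apart.

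The spots set how finely these differences can be read. The printed SD of a difference, the wider of the 2 readings given above, was 0.080 to 0.14 for the members, with a median of 0.14. On the Mst1r-labelled array 21 members were lower by more than 1 SD and 8 by more than 2 SD, and 0 were higher by 1 SD. Of all features 27.9% and 11.01% were lower by as much, and 11.6% were higher by more than 2 SD. Features in the range of mean signal that the members span (386 to 24228) had a median of -0.055, were lower in 64.0% and at least 0.25 lower in 11.6%, so brighter features as a whole leaned the same way and by less than the members. That range was chosen after the data were seen.

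**Figure D1:**
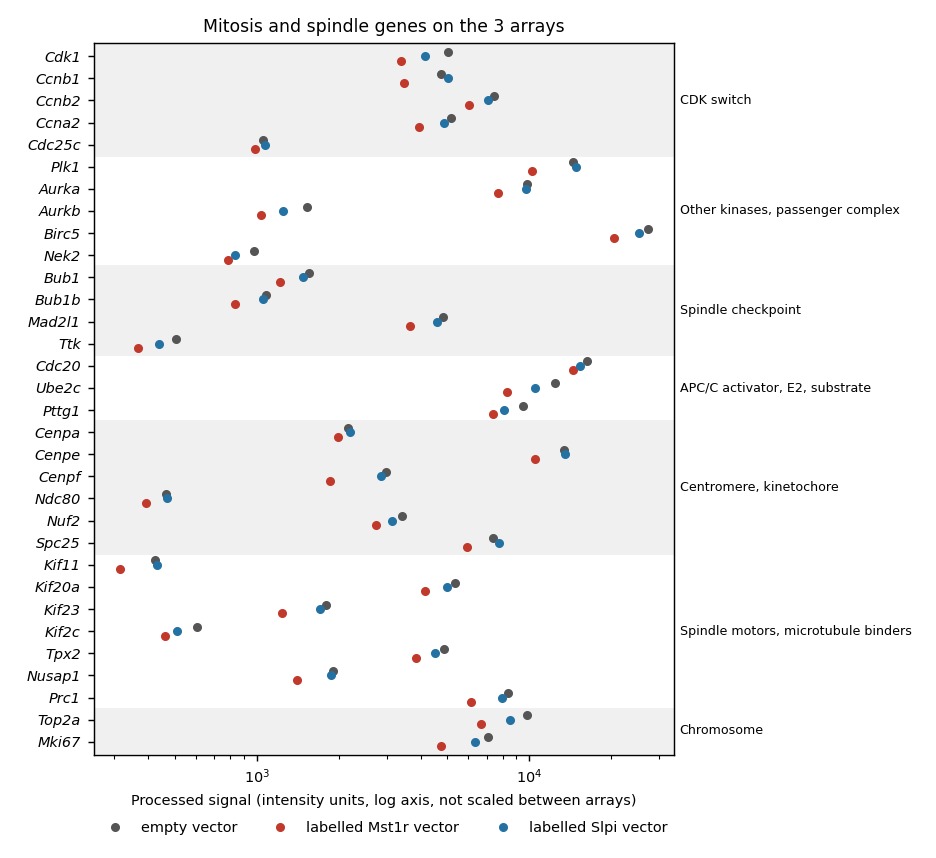
Processed signal in intensity units (log axis, not scaled between arrays) of the brightest probe of each of the 32 genes, one row per gene and grouped by role, with 1 point for each array. In every row the Mst1r-labelled array is leftmost; before scaling all 32 genes were lower there than with empty vector, by a median of -0.39 on the log2 scale.

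The kinase switch that starts mitosis was lower on the Mst1r-labelled array except for its phosphatase. Here and below, signals are given in the order empty vector, Mst1r-labelled and Slpi-labelled array, and scaled log2 differences from empty vector first for the Mst1r-labelled and then for the Slpi-labelled array. Cdk1, the kinase itself, gave processed signals of 5037 with empty vector, 3393 on the Mst1r-labelled and 4168 on the Slpi-labelled array, and after scaling differed from empty vector by -0.34 ± 0.13 and -0.19 ± 0.14. Both vector arrays were thus below the empty vector array, the Mst1r-labelled one furthest. Ccnb1, a cyclin B that activates it, gave 4753, 3473 and 5064, which is -0.22 ± 0.13 and 0.17 ± 0.14. Here the Slpi-labelled array was the highest of the 3, although the other 2 Ccnb1 probes were lower there (-0.086 and -0.099). Ccnb2, the second cyclin B, differed by -0.07 ± 0.14 and 0.016 ± 0.14 (signals of 7421, 6028 and 7105), and Ccna2, the cyclin A of S and G2 phase, by -0.16 ± 0.13 and 0.00089 ± 0.14 (5159, 3940 and 4889). Neither was beyond 2 SD on either array by its brightest probe, but the second Ccna2 probe (4221, 2859 and 3713) was, at -0.33 ± 0.13 on the Mst1r-labelled array. Cdc25c, the phosphatase that removes the inhibitory phosphates from CDK1, gave 1057, 984 and 1074 and was the highest member after scaling, at 0.13 ± 0.13 and 0.10 ± 0.12. Its difference was about as large as its error.

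Among the other mitotic kinases and their partners all 5 were lower on the Mst1r-labelled array. Aurkb, the catalytic subunit of the chromosomal passenger complex that corrects wrong attachments, gave 1536, 1034 and 1250, a difference of -0.34 ± 0.12 and, on the Slpi-labelled array, of -0.22 ± 0.12. This is the largest difference of any brightest probe on the Slpi-labelled array, but the second Aurkb probe was at -0.036 ± 0.14 there. Birc5 (survivin), which targets that complex to centromeres, gave 27277, 20555 and 25365. It differed by -0.18 ± 0.08, past 2 SD since the error is smaller at this brightness, and by -0.027 ± 0.08. Plk1, the polo kinase of centrosomes and kinetochores, gave 14487, 10270 and 14874, or -0.27 ± 0.14 and 0.12 ± 0.14. Aurka, the spindle pole kinase, gave 9809, 7682 and 9740 (-0.12 ± 0.14 and 0.068 ± 0.14), and Nek2, which separates centrosomes, gave 978, 782 and 829 (-0.093 ± 0.14 and -0.16 ± 0.14). Nek2 was lowest on the Slpi-labelled array, unlike the other 4.

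The 4 spindle checkpoint genes lay close together, between -0.24 and -0.13 on the Mst1r-labelled array. Ttk, the kinase at the top of the checkpoint, gave 507, 366 and 438 (-0.24 ± 0.14 and -0.13 ± 0.14). Mad2l1, which binds and holds Cdc20, gave 4828, 3669 and 4584 (-0.17 ± 0.13 and 0.0035 ± 0.14). Bub1b, the BubR1 component of the checkpoint complex, gave 1085, 835 and 1056 (-0.15 ± 0.13 and 0.039 ± 0.12), and Bub1, the kinase that marks centromeric chromatin, gave 1563, 1220 and 1475 (-0.13 ± 0.12 and -0.0049 ± 0.12). All 4 were lowest on the Mst1r-labelled array, and by these brightest probes none was at least 0.25 lower or past 2 SD. Other probes of Ttk (206, 137 and 181) and Mad2l1 (1157, 822 and 1102) were past both marks there, at -0.36 ± 0.16 and -0.26 ± 0.13.

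Genes on the way out of mitosis split. Ube2c, the E2 enzyme that hands ubiquitin to the anaphase-promoting complex, gave 12433, 8302 and 10515, with differences of -0.35 ± 0.14 and -0.16 ± 0.14. Cdc20, which activates that complex, gave 16374, 14508 and 15364, or 0.056 ± 0.14 and -0.014 ± 0.14. These 2 therefore parted by more than the error of either, Ube2c below and Cdc20 near its empty vector level. Pttg1 (securin), which the complex destroys at anaphase, gave 9554, 7354 and 8090 and differed by similar amounts on both vector arrays, -0.15 ± 0.14 and -0.16 ± 0.14.

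**Figure D2:**
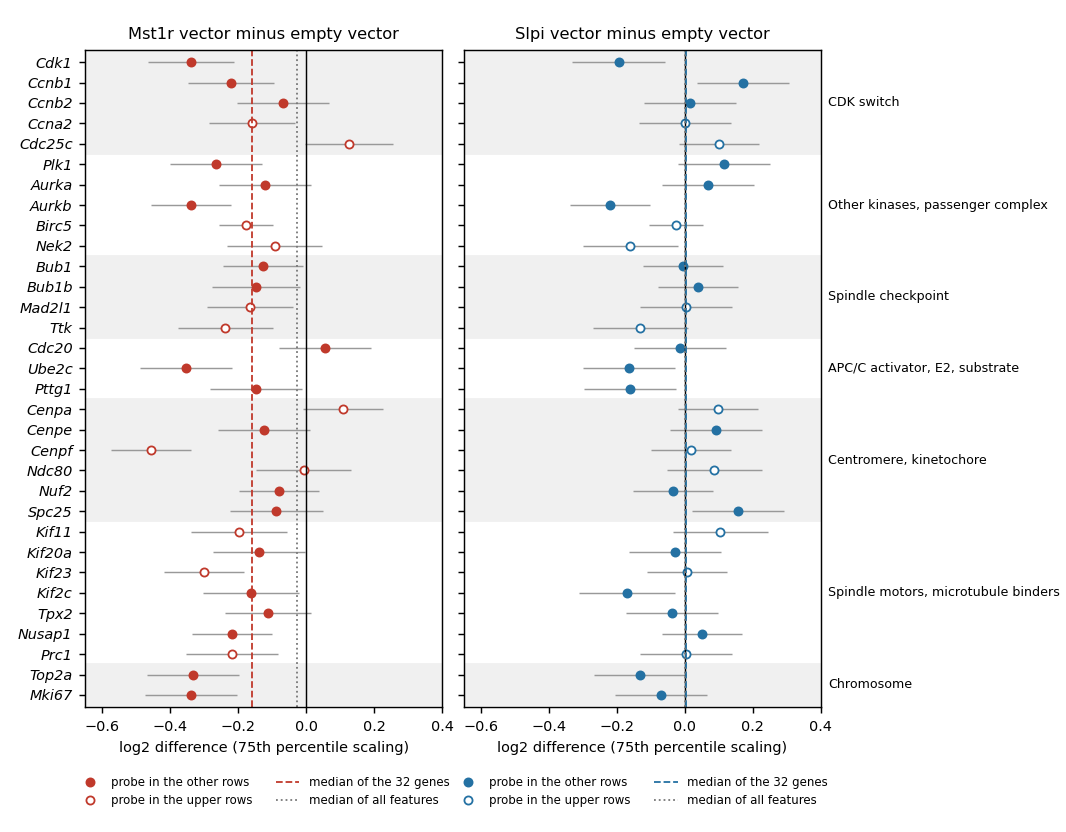
Log2 difference from empty vector after 75th percentile scaling for each of the 32 genes, with the array labelled Mst1r on the left and the array labelled Slpi on the right; bars are the SD between spots, open points are probes in the upper rows of the array, and the lines mark the medians of the 32 genes and of all features. On the left 29 points lie below 0 around a median of -0.16, and on the right 15 lie below and 17 above 0.

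On the Mst1r-labelled array the widest spread within a role was that of the centromere and kinetochore genes. Cenpf, a large kinetochore protein that accumulates in G2 phase, gave 2994 with empty vector, 1859 on the Mst1r-labelled and 2871 on the Slpi-labelled array. At -0.46 ± 0.12, or 0.728 times its empty vector level, it was the lowest member of all, while the Slpi-labelled array was at 0.018 ± 0.12. Cenpa, the histone variant that defines the centromere, was at the other end with 2169, 1993 and 2199 (0.11 ± 0.12 and 0.099 ± 0.12). Cenpe, the kinesin that moves chromosomes to the spindle equator, gave 13467, 10531 and 13591 (-0.12 ± 0.14 and 0.092 ± 0.14). The 3 members of the NDC80 complex, which grips the microtubule end, were within 1 SD of 0 on the Mst1r-labelled array by their brightest probes. Ndc80 gave 464, 394 and 467 (-0.0075 ± 0.14 and 0.086 ± 0.14), Nuf2 gave 3413, 2754 and 3154 (-0.079 ± 0.12 and -0.035 ± 0.12), and Spc25 gave 7386, 5925 and 7797 (-0.088 ± 0.14 and 0.16 ± 0.14). The sign of Ndc80 turned to 0.026 with median scaling.

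All 7 motors and microtubule-binding proteins were lower on the Mst1r-labelled array, from -0.30 to -0.11. Kif23, the motor of the midzone complex needed for cytokinesis, was lowest with 1794, 1242 and 1706 (-0.30 ± 0.12 and 0.0058 ± 0.12). Prc1, which bundles the antiparallel microtubules of the midzone, gave 8387, 6147 and 7966 (-0.22 ± 0.14 and 0.0041 ± 0.14), and Nusap1, which bundles microtubules around chromosomes, gave 1912, 1402 and 1875 (-0.22 ± 0.12 and 0.05 ± 0.12). On the Slpi-labelled array these 3 were at their empty vector level within the error. Kif11, the motor that pushes spindle poles apart, gave 424, 315 and 431 (-0.20 ± 0.14 and 0.10 ± 0.14). Kif20a, another midzone motor, gave 5371, 4158 and 4990 (-0.14 ± 0.14 and -0.028 ± 0.14), and Tpx2, which activates Aurka on the spindle, gave 4881, 3851 and 4506 (-0.11 ± 0.13 and -0.037 ± 0.14). Kif2c, which takes microtubules apart at centromeres, gave 604, 460 and 508 and differed alike on both, by -0.16 ± 0.14 and -0.17 ± 0.14.

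The genes of chromosome structure and surface were both at least 0.25 lower. Top2a, the topoisomerase that untangles sister chromatids, gave 9828, 6650 and 8501 (-0.33 ± 0.14 and -0.13 ± 0.14). Mki67, the coat of mitotic chromosomes used in pathology as a marker of cycling cells, gave 7049, 4750 and 6360 (-0.34 ± 0.14 and -0.07 ± 0.14). Cenpf, Ube2c, Cdk1, Aurkb, Mki67, Top2a, Kif23 and Plk1 make up the 8 members at least 0.25 lower, and they came from 6 of the 7 roles. From Ube2c to Top2a these values differ by less than 1 SD, so they have no order.

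**Figure D3:**
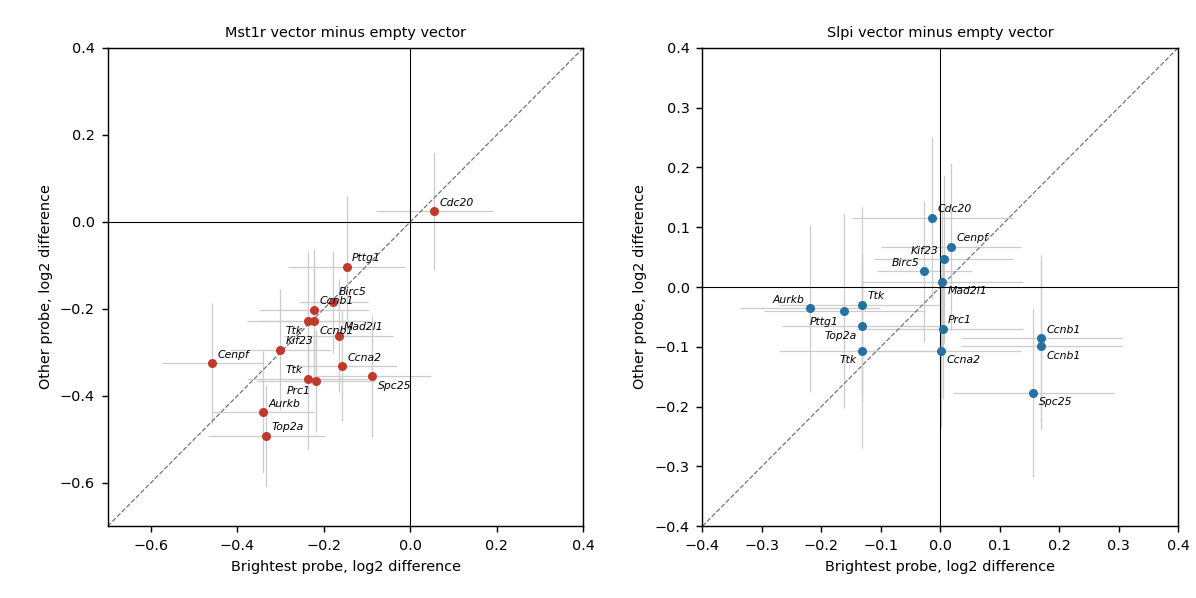
Log2 difference of the other probes of 13 members (vertical) against that of the brightest probe of the same gene (horizontal), each with the SD between spots, for the arrays labelled Mst1r (left) and Slpi (right); the dashed line marks equal values. On the left 14 of 15 points lie below 0 on both axes, and on the right the points scatter around 0.

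Other probes of the same genes gave a second reading on the same arrays, which shares the RNA but not the spot. They numbered 16 for 14 genes, and 15 probes of 13 genes were well above background on all arrays. The second Kif2c probe was not. On the Mst1r-labelled array 14 of the 15 were lower than with empty vector, with a median of -0.29 against -0.22 for the brightest probes of the same genes. All 15 had the sign of the brightest probe, including that of Cdc20, the higher one at 0.024. Of these probes 9 were at least 0.25 lower. No share over the other probes of all genes is given for these counts. The 55.4% lower and 14.1% at least 0.25 lower of all features refer to brightest probes. Top2a was lowest with signals of 3304, 2003 and 2992, a difference of -0.49 ± 0.12, and Aurkb followed with 413, 260 and 381 (-0.44 ± 0.14). The second probe of Cenpf gave 542, 368 and 538 (-0.33 ± 0.14), less far below than the first. Spc25 was a case where the probes disagreed in size, since the second differed by -0.36 ± 0.14 (907, 605 and 760) and the first by -0.088 ± 0.14. The SD between probes of a gene was 0.084. That is below the median printed error of 0.14, which includes the scatter between positions. It is above the 0.054 to 0.070 found at the same position for log2 signals of 8 to 14. On the Slpi-labelled array the other probes had a median of -0.04 and 10 of 15 were lower, and 8 of 15 had the sign of the brightest probe.

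Position on the array was set apart because more features were at least 0.25 lower on the Mst1r-labelled array in the upper rows (17.0% of 6562 detected features) than in the others (12.5% of 12687). The 12 members with a brightest probe in the upper rows had a median of -0.17 on the Mst1r-labelled array, and 10 were lower (57.1% of all features there, with a median of -0.036). Of these 12, 2 were at least 0.25 lower, near the 17.0% of all features there. The 20 members in the other rows had a median of -0.15, and 19 were lower (54.5% of all features there, with a median of -0.022). Of these 20, 6 were at least 0.25 lower, beside 12.5% of all features there. Cenpf and Kif11 lie in row 5. Members in the other rows, which leave these out, were lower in a larger share.

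On the Slpi-labelled array the 32 genes were centred on the empty vector array. The median was 0.0022, against 0.00003 for all features, with 15 members lower and 17 higher. The lowest was Aurkb at -0.22 and the highest Ccnb1 at 0.17. None was at least 0.25 lower, at least 0.25 higher or 2-fold apart. By the printed error 0 were beyond 2 SD, against 3.96% (lower) and 3.56% (higher) of all features. The same-position SD at the signal of Aurkb was 0.054, so this count depends on the error used. All features were lower in 50%, at least 0.25 lower in 7.82%, at least 0.25 higher in 5.77% and at least 2-fold apart in 1.32%. The median turned to -0.24 with spike-in scaling and to 0.17 with median scaling. Such scaling moves every feature of an array by 1 amount, and the median of all features was then -0.24 and 0.17.

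**Figure D4:**
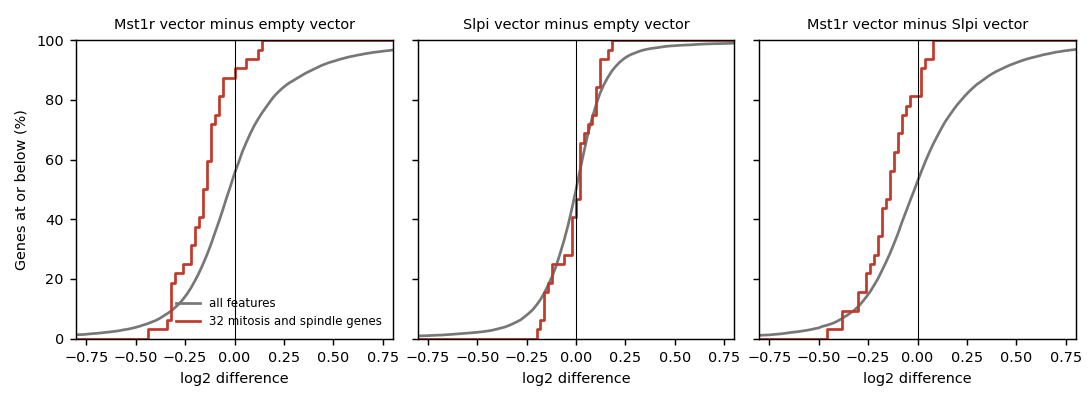
Percentage of genes (vertical) whose log2 difference lies at or below the value on the horizontal axis, for the 32 genes and for all 19249 features in the 3 comparisons. The curve of the 32 genes lies to the left over most of its range in both comparisons with the array labelled Mst1r, with medians of -0.16 and -0.16. Among the lowest values it lies to the right, with 3.1% of the 32 genes at or below -0.40 in both, against 6.0% of all features. For Slpi-labelled minus empty vector the 2 curves lie around each other.

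Both vector arrays were set against 1 empty vector array, so the comparisons above share it. Between the vector arrays the members had a median of -0.16 (Mst1r-labelled minus Slpi-labelled), against -0.015 for all features, and 26 of 32 were lower on the Mst1r-labelled array (52.7% of all features). At least 0.25 lower were 7 members (14.8% of all features), 0 were at least 0.25 higher (17.9%), and 0 were 2-fold apart (2.66%). Under spike-in scaling the median was -0.023 and 2 members were at least 0.25 lower, while the median of all features was 0.12. Cenpf had the largest difference, -0.48, followed by Ccnb1 (-0.39), Plk1 (-0.38), Kif23 (-0.31), Kif11 (-0.30), Mki67 (-0.27) and Nusap1 (-0.27). Ccnb1, Kif11 and Nusap1 were not among the 8 genes named against empty vector, and Cdk1, Aurkb, Ube2c and Top2a were not among these 7. All 15 other probes were lower on the Mst1r-labelled array, with a median of -0.23.

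Taking the 3 arrays at once, 26 members were lowest on the Mst1r-labelled array, 4 on the Slpi-labelled array (Cdc20, Kif2c, Nek2 and Pttg1) and 2 on the empty vector array (Cdc25c and Cenpa). For all features these shares were 44.0%, 30.4% and 25.6%. The highest array was that with empty vector for 14 members and the Slpi-labelled one for 15. No share over all features is given for the highest array, so these counts are not read further.

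**Figure D5:**
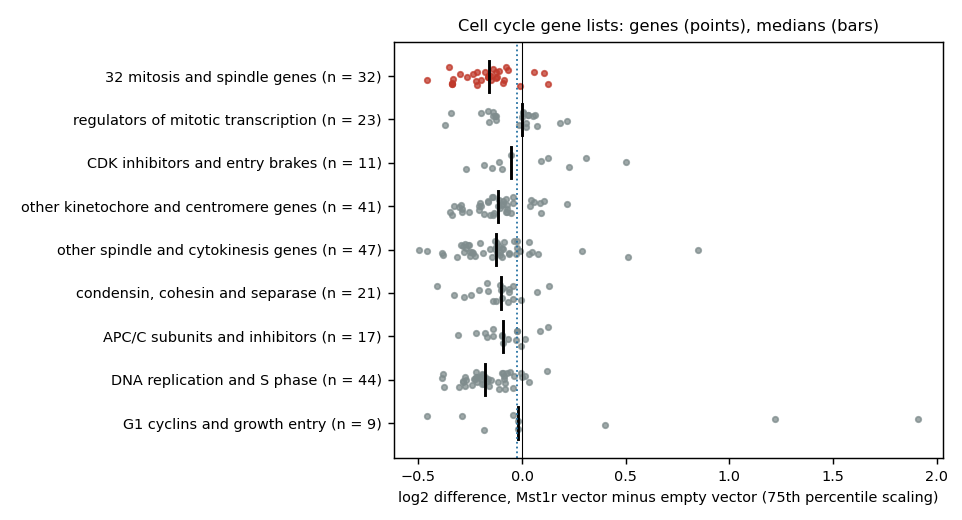
Log2 difference between the array labelled Mst1r and the empty vector array for the 32 genes and 8 other cell cycle lists, with 1 point per gene, a bar at each median and the number of detected genes in brackets; the dotted line is the median of all features. The medians of the 32 genes (-0.16) and of the replication genes (-0.18) lie furthest left, while the bar of the regulators of mitotic transcription is near 0, as read from the brightest probes (-0.073 as the mean over all probes of a gene).

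Other genes of the division cycle were described with the same counts. Beside them, 55.4% of all features were lower on the Mst1r-labelled array, and 64.0% of those in the members' range of signal. Kif22 counts in both the spindle and the condensin list. Of the other kinetochore and centromere genes 34 of 41 were lower on the Mst1r-labelled array (median -0.11), from Cenpq at -0.35 ± 0.13 to Nsl1 at 0.22 ± 0.12. Of the other spindle and cytokinesis genes 40 of 47 were lower (median -0.13). Fam83d, which brings a kinase to the spindle, was lowest at -0.50 ± 0.15, and Kifc1, a minus-end kinesin with signals of 70.9, 109 and 126, was highest at 0.85 ± 0.16. Condensin, cohesin and separase genes were lower in 19 of 21 (median -0.10), from the condensin subunit Ncapg2 (-0.41 ± 0.13) to the cohesin release factor Wapl (0.13 ± 0.12). Subunits and inhibitors of the anaphase-promoting complex were lower in 14 of 17 (median -0.090), from the inhibitor Fbxo5 (-0.31 ± 0.12) to the subunit Cdc16 (0.12 ± 0.12). The DNA replication and S phase genes, which act before mitosis, were lower in 41 of 44 with a median of -0.18, from the licensing factor Cdc6 (-0.39 ± 0.12) to the polymerase subunit Pola2 (0.12 ± 0.16). Genes of S phase were thus lower in about as large a share as the mitotic genes. On the Slpi-labelled array the medians of these 5 lists lay between -0.022 and 0.0072.

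The regulators of mitotic transcription were centred near 0 on the Mst1r-labelled array, where 12 of 23 were lower with a median of -0.00088. That median was -0.12 over probes outside the upper rows alone, -0.073 with the mean over all probes of a gene and 0.032 with median scaling. Rbl1 (p107), a pocket protein of the DREAM complex, was lowest at -0.37 ± 0.13, and E2f7, a repressor of the E2F family, was at -0.34 ± 0.14. The activators of late cell cycle genes were lower by about 1 SD, with Mybl2 (B-Myb) at -0.17 ± 0.14 and Foxm1 at -0.13 ± 0.13. E2f1 was at -0.13 ± 0.12, E2f2 at -0.20 ± 0.14, E2f5 at -0.14 ± 0.16 and E2f8 at -0.16 ± 0.12, while E2f3, E2f4 and E2f6 were at 0.22 ± 0.16, 0.028 ± 0.15 and 0.021 ± 0.12. The MuvB core, which binds the CHR element printed above, lay within 2 SD of its empty vector level, with Lin9 at -0.016 ± 0.14, Lin37 at -0.00088 ± 0.14, Lin52 at 0.19 ± 0.14, Lin54 at 0.065 ± 0.14 and Rbbp4 at 0.027 ± 0.11. The other pocket proteins Rb1 (0.054 ± 0.14) and Rbl2 (0.0066 ± 0.26) were near 0. The E2F partners Tfdp1 and Tfdp2 were at -0.12 ± 0.12 and 0.073 ± 0.14, and the NF-Y subunits Nfya, Nfyb and Nfyc at -0.14 ± 0.16, 0.020 ± 0.14 and 0.0047 ± 0.13.

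Brakes on entry into division were mixed, with 6 of 11 lower and a median of -0.054, which was 0.011 with normexp background correction. Btg2, an antiproliferative gene that p53 induces, was highest at 0.50 ± 0.14 with signals of 383, 463 and 373. Gadd45a, a stress gene that restrains CDK1, gave 234, 247 and 352 and was 0.31 ± 0.16 on the Mst1r-labelled and 0.66 on the Slpi-labelled array, and Cdkn1a (p21) gave 2990, 2980 and 2873 and was 0.23 ± 0.12 and 0.021. Pkmyt1 and Cdkn2d were at 0.12 ± 0.12 and 0.094 ± 0.12. Wee1, the kinase that holds CDK1 inactive, was lowest at -0.27 ± 0.14, followed by Cdkn2c (-0.18 ± 0.12), Trp53 (-0.14 ± 0.12), Cdkn1b (-0.11 ± 0.12), Cdkn3 (-0.098 ± 0.12) and Sfn (-0.054 ± 0.12). Cdkn1c, Cdkn2a and Cdkn2b were not well above background on all arrays. The G1 and growth entry genes ranged from Cdk6 (-0.46 ± 0.21) to the immediate early gene Egr1, which gave 790, 2530 and 848 and was 1.91 ± 0.13 higher on the Mst1r-labelled array, with a median of -0.021 and 6 of 9 genes lower (0.012 with median scaling).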

How the data were processed

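Total RNA (100 ng per labelling) was hybridised to single-colour Agilent SurePrint G3 Mouse arrays. The deposited values were spot intensities that the authors extracted with Agilent Feature Extraction 12.0.3.1 (a later version than the methods name), on an array design of build mm9. The processed signal is background-subtracted and not scaled between arrays. A deposited table of the series held the same intensities per probe (99.9% of values within 0.01 on the log2 scale) and served as an alternative.

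Log2 processed signal was averaged over spots, leaving out spots marked as outliers, and the array's 75th percentile (56605 probes, controls left out) was subtracted. Array 75th percentiles were 229 to 268, and 46.7% to 48.5% of probes were well above background. Names came from RefSeq accessions (25126 of 47837 matched). Probes printed at least 10 times gave the SD between spots by signal level. Percentages beside counts are over features well above background on all 3 arrays.

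Members and lists were chosen with earlier results of these data known. Named were all members, the transfected genes, each list's highest and lowest gene, and every detected regulator and brake. The 12 alternatives covered scaling, background, probe choice, rows and filters. The files held no mean spot signal, so normexp (offset 50, limma 3.58.1 in R 4.3.3) was run on median spot and background signals. Scripts (Python 3.11.15, numpy 2.4.6, pandas 2.3.3) were tested on simulated data. A further marker planned for the hepatocyte list is not reported here, so the list counts 11.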

Additional observations from a re-analysis of the deposited data

How the results depend on the processing

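For the Mst1r-labelled minus empty vector comparison 28 to 32 members were lower under all 12 alternatives (25 of the 26 with a probe outside the upper rows, where the upper rows were left out). The median was -0.39 without scaling, and the number of members at least 0.25 lower was 28 without scaling and 19 with spike-in scaling. For Slpi-labelled minus empty vector, the median was 0.17 with median scaling and -0.24 with spike-in scaling, the number lower was 24 without scaling, 3 with median scaling and 32 with spike-in scaling, and the number at least 0.25 lower was 2 without scaling, 14 with spike-in scaling and 1 with normexp. For Mst1r-labelled minus Slpi-labelled, the median was -0.31 without scaling, and 22 members were at least 0.25 lower without scaling, 20 with median scaling and 2 with spike-in scaling. These scalings shift each feature of an array by 1 amount, so counts of members at least 0.25 lower move with all features. The share of all features past that mark is not given here. For Mst1r-labelled minus empty vector the median of all features was -0.26 without scaling, itself past that mark, and -0.13 with spike-in scaling. For Slpi-labelled minus empty vector it was -0.24 with spike-in scaling. For Mst1r-labelled minus Slpi-labelled it was -0.17 without scaling, -0.15 with median scaling and 0.12 with spike-in scaling. For Mst1r-labelled minus empty vector the members' median less that of all features was -0.13 under each scaling by 1 value per array. This difference cannot change under such a scaling, which moves both medians alike. It was -0.10 with quantile normalization, -0.17 with normexp and -0.34 with no filter on dim genes, where the dim features move the reference. It was -0.11 against the features in the members' range of signal. The spike-in probes differed by -0.12 ± 0.02 (SD, 7 probes) on the Mst1r-labelled and 0.16 ± 0.04 on the Slpi-labelled array before scaling. Of 378 single-gene values in the comparison with the Mst1r-labelled array 342 moved by less than 1 SD between spots. Alternatives that change only the filter on dim genes leave the members' values as they were, and a change of scaling moves all members alike. The count therefore depends on which alternatives were chosen and does not measure stability. The share of member promoters with a CHR was 66.7% with TTTGAA alone, against 20.2% of all genes. No paired analysis was possible because each group holds 1 array, and for the same reason no replicate could be left out.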
